A study of Arabidopsis lyrata subsp. lyrata and Arabidopsis thaliana with 7 samples.

Results

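Transcripts of the vegetative shoot apex of *Arabidopsis lyrata* were set against those of its inflorescence. The comparison used 3 of the 7 libraries of the series, 1 of shoot apices and 2 of inflorescences, chosen by their labels. Its features were the gene models annotated as protein coding, 31,963 of the 32,793 models that the count table holds, and 25,463 of them had enough reads to be tested. The series also holds 2 *A. lyrata* rosette libraries, which entered the statistical fit and are quoted where they help to read a value, and 2 rosette libraries of *A. thaliana*, which were not used.

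All plants were *A. lyrata* subsp. *lyrata* of the cultivar MN47, grown in soil at 21 °C with 16 h of light per day and given no special treatment. The shoot apices came from plants of about 3 weeks with 5 leaves, after hypocotyl, roots, cotyledons and true leaves had been removed with a blade. The inflorescences were taken whole from the main stem, and the share of meristem, buds, open flowers and stem in them is not given. Tissue, plant age and read length (longer for the shoot apex, as listed by the study) change together between both groups and cannot be told apart. The shoot apex is a single library, and nothing in the labels says whether the inflorescence libraries are separate plants. P-values therefore measure only the spread within the inflorescence pair and, where the rosettes enter the fit, within the rosette pair. A difference between the rosettes thus enters the p-value of a gene although the rosettes are not part of the comparison. In a bulk tissue, fewer cells of a type and less RNA per cell cannot be told apart either.

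The shoot apical meristem keeps a small pool of stem cells and forms leaves from its flanks until the plant flowers. In *A. thaliana*, repressors such as SVP and FLC hold back this step, SPL and MADS-box factors promote it, and LFY and AP1 turn new primordia into flowers, in which combinations of MADS-box factors specify sepals, petals, stamens and carpels. Within the anther, the tapetum surrounds the developing pollen and delivers the enzymes, lipids and proteins of the pollen wall and coat. Gene names below are those of the *A. thaliana* ortholog given in the annotation, and the roles given are those known in *A. thaliana*.

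The shoot apex library held 10,556,736 reads counted in gene models, and the inflorescences held 28,347,972 and 26,047,279. Levels are given as CPM, the count of a model relative to all counted reads of its library, after scaling by trimmed mean of M-values (TMM). No transcript length enters, so levels can be compared between libraries for 1 gene but not between genes. With 3 reads taken as the floor of detection, a model without reads in the shoot apex may reach 0.215 CPM there, against 0.0944 and 0.0986 CPM in the inflorescences. Intervals and floors cover counting error only. Both inflorescences differed by a median of 0.142 on the log2 CPM scale over models above 1 CPM, and the shoot apex differed from their mean by a median of 0.590.

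In edgeR's quasi-likelihood test over all 5 *A. lyrata* libraries, with Benjamini-Hochberg adjusted p under 0.05, 1016 protein coding models were higher and 2226 lower in the shoot apex than in the inflorescence. These are 3.99% and 8.74% of the models tested, the background against which each gene list below was read. With library totals in place of TMM the split was 1358 higher and 1802 lower, and the median log2 change of all models moved by 0.20 to 0.13, from -0.08 with TMM. A fit of the 3 libraries alone took its spread from the inflorescence pair and called 5259 higher and 7130 lower, 20.2% and 27.4% of the models tested. Of the 3242 calls made with 5 libraries, 3240 were shared and all of these kept their sign. With either inflorescence library left out, edgeR called no model in either direction, with 3768 or 3879 models at an unadjusted p under 0.05. Counts for a list from the fit of 3 libraries are given where they differ from the main ones by more than 1.5 times.

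The lower set held larger estimated differences. Its median size was 5.14 on the log2 scale, and 1284 of 2226 models (57.7%) differed by more than 4, against a median of 2.22 and 210 of 1016 models (20.7%) in the higher set. Of all models tested, 3140 (12.3%) differed by more than 4. These are fitted sizes without bounds, and for a model without a read in 1 tissue the fitted size is not a measured one. No read at all was found in the shoot apex for 675 models of the lower set, whereas 18 models of the higher set had no read in either inflorescence. Among all 25,463 models tested, 1874 had no read in the shoot apex and 80 had none in either inflorescence. The shoot apex is 1 library with fewer reads than either inflorescence library. The counts of both sides are therefore not read at equal depth. Models of the lower set took 1.94% of the counted reads in the shoot apex (exact 95% interval 1.93% to 1.94%), against 23.1% (23.1% to 23.1%) and 21.7% (21.7% to 21.7%) in the inflorescences. Models of the higher set took 10.1% of the shoot apex reads (10.1% to 10.1%), against 1.77% (1.77% to 1.78%) and 1.90% (1.90% to 1.91%). Both sets were chosen from these same counts, so the direction of these shares was fixed by the choice. An *A. thaliana* ortholog was listed for 82.7% of the higher set, 84.3% of the lower set and 78.0% of all models tested.

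**Figure D1:**
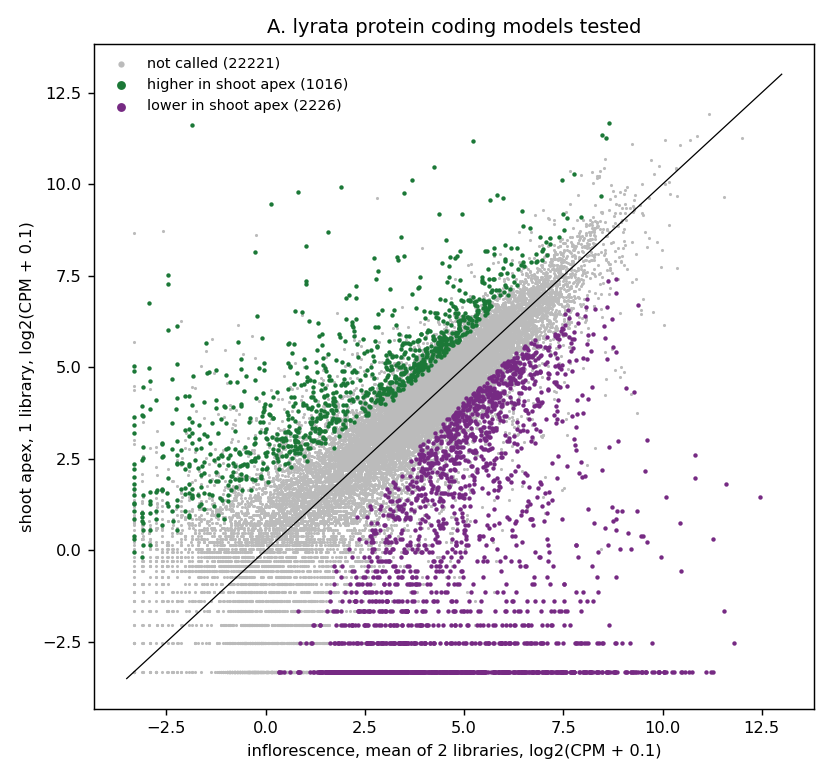
Levels of the 25,463 protein coding models tested, as log2(CPM + 0.1), in the shoot apex library (vertical axis) and as the mean of both inflorescence libraries (horizontal axis), with the line of equal levels. Green points are the 1016 models called higher and purple points the 2226 called lower in the shoot apex. The dense line of purple points at the bottom consists of models without a read in the shoot apex.

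Genes were described through 30 lists of *A. thaliana* genes. Of 444 genes, 422 had a model (421 models, since CAB2 and CAB3 share 1), and 391 models passed the filter on low counts. A model with reads in a single tissue passed that filter through this tissue, so list counts are descriptions.

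**Figure D2:**
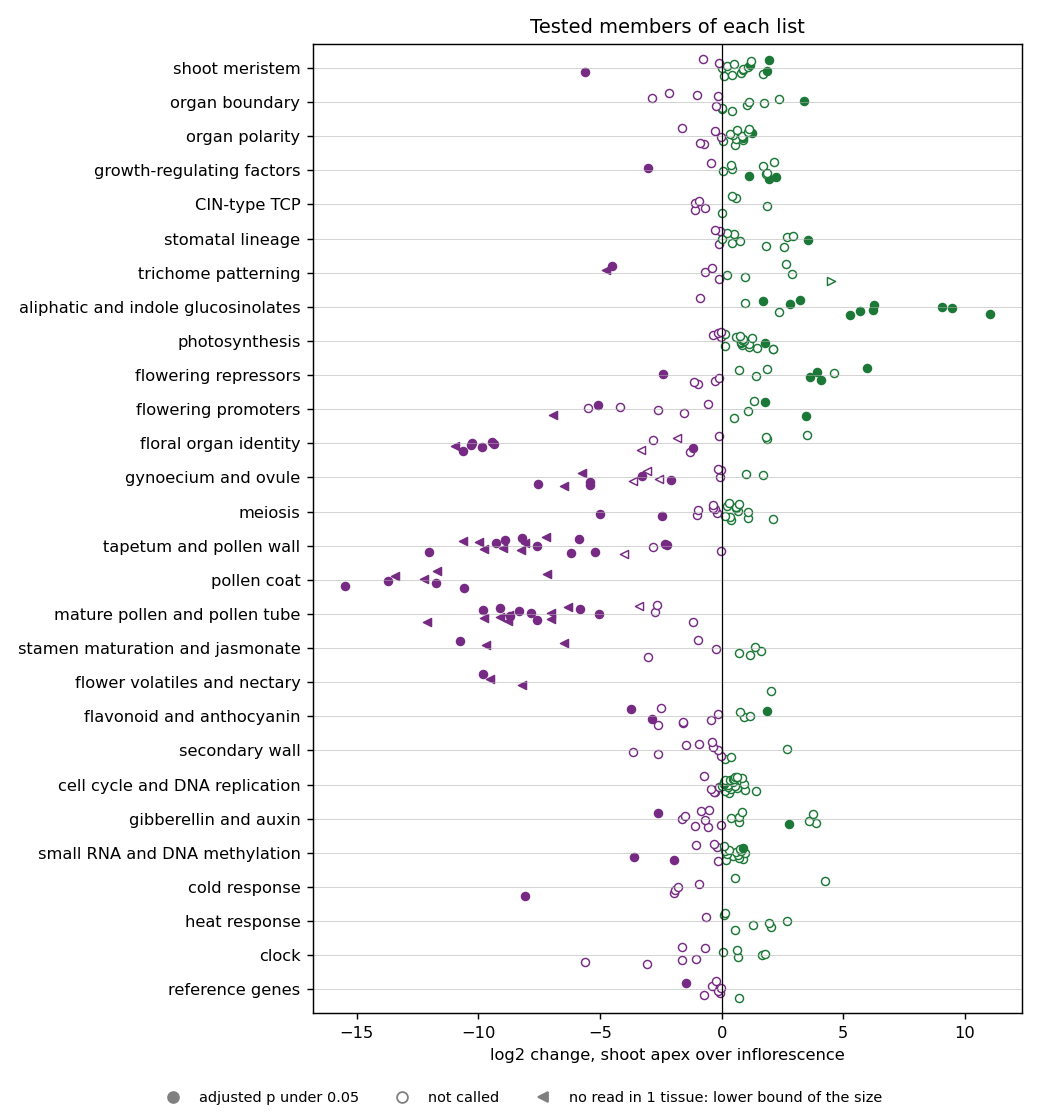
Log2 change, shoot apex over inflorescence, of the tested models in 28 lists, 384 models in all, with filled symbols for adjusted p under 0.05. Triangles are models without a read in 1 tissue, drawn at the lower bound that a floor of 3 reads allows, and 2 models at or under the floor in both tissues are not drawn. Of 13 glucosinolate genes 12 lie to the right of 0, and all pollen coat, tapetum and pollen genes lie to the left, from -0.01 (MS1) downwards. The 28 cell cycle genes lie between -0.74 and 1.41, 23 of them to the right of 0 and 5 to the left.

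Transcripts of the meristem factors STM and KNAT1 were read in the shoot apex and in the inflorescence, whereas WUS and CLV3, described below, had at most 3 reads in the shoot apex. STM, the homeobox factor that keeps meristem cells undifferentiated, reached 42.2 CPM in the shoot apex, against 38.1 and 39.6 CPM in the inflorescences, while the rosettes had 0.864 and 0 CPM. Its relative KNAT1 reached 67.2 CPM, against 50.3 and 49.2 CPM. Neither passed the test (adjusted p = 0.92 and 0.82), although KNAT1 did in the fit of 3 libraries (adjusted p = 0.0291), and in both genes the shoot apex lay above the inflorescences by less than their distance from the rosettes. Of 17 tested meristem genes, 3 were higher and 1 lower in the shoot apex, against 11 and 2 in the fit of 3 libraries, with a median log2 change of 0.79. The summed level of the list was 738 CPM in the shoot apex, against 472 and 457 CPM.

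CLV1, the receptor kinase that limits the stem cell pool, was higher in the shoot apex at 63.4 CPM, against 18.1 and 17.1 CPM (log2 change 1.85 ± 0.25 SE, adjusted p = 0.0237). ATH1, a BELL-type homeobox factor that acts in the shoot apex and in repression of flowering, was also higher, at 64.8 CPM, against 17.5 and 16.5 CPM (1.93 ± 0.23, adjusted p = 0.0176). The rosettes, with 73.1 and 52.6 CPM for CLV1 and 59.4 and 45.1 CPM for ATH1, held both genes at about the level of the shoot apex. HAM2, a GRAS factor of meristem maintenance, was the remaining gene called higher, at 60.8 CPM, against 27.7 and 26.6 CPM (1.16 ± 0.18, adjusted p = 0.0323). WUS, the homeobox factor of the organizing centre below the stem cells, went the other way. It had 2 reads in the shoot apex, against 194 and 265 reads, a ratio of inflorescence to shoot apex of 51.4 (95% counting interval 14.2 to 426, adjusted p = 0.0347). CLV3, the peptide made by the stem cells themselves, was at the limit of detection with 3 reads in the shoot apex, against 0 and 1, and was not tested.

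Genes of organ boundaries were detected in both tissues, and 1 of 13 was called. CUC2, a NAC factor that separates organs, had 5.09 CPM in the shoot apex, against 5.10 and 4.96 CPM in the inflorescences, and CUC3 had 4.52 CPM, against 4.66 and 4.34 CPM. LSH3, expressed in boundary cells, was higher at 7.39 CPM, against 0.629 and 0.789 CPM (3.37 ± 0.65, adjusted p = 0.0464). Its relative LSH4 had 75.7 CPM, against 14.5 and 14.7 CPM, and LOF1, a MYB factor of boundaries, had 3.44 CPM, against 23.9 and 26.7 CPM. LSH4 and LOF1 did not pass the test over 5 libraries (adjusted p = 0.187 and 0.0675), and both did in the fit of 3 libraries (adjusted p = 0.000195 and 0.000502), which called 4 boundary genes higher and 3 lower. LSH10, a further gene of the LSH family, was among the 15 largest increases of models with a mean log2 CPM above 3 over the 3 libraries, with 154 CPM in the shoot apex, against 1.57 and 2.27 CPM (6.33 ± 0.30, adjusted p = 0.00783).

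Leaf polarity genes gave few calls. Of 17, 2 were called higher and none lower, the fit of 3 libraries gave 10 and 2, and the median log2 change was 0.53. CNA, a class III HD-ZIP factor of the upper leaf side and the vasculature, had 137 CPM in the shoot apex, against 59.2 and 57.4 CPM (1.23 ± 0.19, adjusted p = 0.0302). YAB3, a YABBY factor of the lower leaf side, had 44.9 CPM, against 24.99 and 23.4 CPM (0.89 ± 0.18, adjusted p = 0.0489). PHB, with 124 CPM against 70.4 and 69.3 CPM, and ARF4, with 110 CPM against 77.5 and 65.4 CPM, were the most abundantly read members that were not called.

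Growth-regulating factors (GRF), which promote cell proliferation in young leaves together with GIF cofactors, gave 3 genes higher and 1 lower of 12, and 7 and 2 in the fit of 3 libraries. GRF1 had 93.8 CPM in the shoot apex, against 22.0 and 27.1 CPM in the inflorescences (1.94 ± 0.28, adjusted p = 0.0279). GRF2 had 40.7 CPM, against 8.34 and 9.07 CPM (2.22 ± 0.21, adjusted p = 0.0107), and GRF3 had 41.0 CPM, against 17.1 and 20.12 CPM (1.14 ± 0.20, adjusted p = 0.0389). In the rosettes these genes lay between 10.1 and 40.9 CPM, so the shoot apex was the highest of the 3 tissues for each. GRF8 was the exception within the family, with 1.08 CPM in the shoot apex, against 9.22 and 8.55 CPM (-3.04 ± 0.43, adjusted p = 0.0259). GRF4 and GRF5, at 38.0 and 33.1 CPM in the shoot apex, against 10.9 and 10.8 CPM for GRF4 and 9.60 and 8.61 CPM for GRF5, missed the threshold with 5 libraries (adjusted p = 0.157 and 0.351) and passed it with 3 (0.000512 and 0.000717). The CIN-type TCP factors, which restrain proliferation in expanding leaves, gave no call among 8 genes with 5 libraries and 1 higher and 4 lower with 3. TCP4 had 49.7 CPM in the shoot apex, against 87.7 and 73.1 CPM (adjusted p = 0.503, and 0.0247 with 3 libraries).

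Stomatal genes were detected in both tissues, as were the trichome genes other than CPC and GL1. EPF2, a peptide that limits entry into the stomatal lineage, was higher at 6.96 CPM, against 0.598 and 0.592 CPM in the inflorescences (3.53 ± 0.68, adjusted p = 0.0463), and was the only call among 13 stomatal genes. SPCH, the factor that starts the lineage, had 16.0 CPM, against 3.02 and 2.33 CPM, and BASL, which polarizes its divisions, had 7.39 CPM, against 1.23 and 1.08 CPM. These were not called with 5 libraries (adjusted p = 0.127 and 0.111) and were called with 3 (0.0013 and 0.00295), which gave 5 higher and none lower. FAMA, which acts late in guard cells, had 8.11 CPM, against 8.06 and 9.57 CPM, with 39.2 and 56.1 CPM in the rosettes. Among 10 trichome genes none was higher and 2 were lower, and both of these encode small MYB inhibitors of hair formation. CPC had no read in the shoot apex, against 157 and 200 reads, and was at least 26.8-fold lower (adjusted p = 0.0128), and ETC3 had 0.431 CPM, against 11.1 and 8.65 CPM (-4.50 ± 0.57, adjusted p = 0.0212). GL1, the MYB activator of leaf trichomes, had 30 reads in the shoot apex and none in either inflorescence, at least 22.3-fold higher, but did not pass (adjusted p = 0.0999, and 0.00944 with 3 libraries, where 4 genes were higher and 2 lower).

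Glucosinolate genes showed the steepest difference in favour of the shoot apex. Of 13 tested genes, 10 were higher and none lower, with a median log2 change of 5.28, and the summed level was 4776 CPM in the shoot apex, against 171 and 191 CPM in the inflorescences. The rosettes, at 4508 and 4552 CPM, were close to the shoot apex. Glucosinolates are sulfur-rich defence compounds of the Brassicaceae, made from chain-elongated methionine (aliphatic) or from tryptophan (indole).

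The calls covered regulators and consecutive enzymes of the aliphatic branch. MYB28, its main transcriptional activator, had 255 CPM in the shoot apex, against 5.67 and 7.50 CPM (5.28 ± 0.32, adjusted p = 0.00783). MYB29, a second activator, had 2550 reads in the shoot apex, against 0 and 5 reads, a ratio of shoot apex to inflorescence of 2276 (95% counting interval 974 to 7015, adjusted p = 0.00784). BCAT4, which starts methionine chain elongation, had 1411 CPM, against 18.4 and 19.1 CPM (6.23 ± 0.26, adjusted p = 0.00783). MAM1, the synthase that condenses the chain in each cycle, had 703 CPM, against 0.598 and 1.38 CPM (9.47 ± 0.58, adjusted p = 0.00783), the largest increase by the naming rule. CYP79F1, which turns elongated methionine into aldoximes, had 883 CPM, against 0.629 and 2.66 CPM (9.07 ± 0.94, adjusted p = 0.0139). CYP83A1, the next enzyme, had 861 CPM, against 7.33 and 14.96 CPM (6.27 ± 0.52, adjusted p = 0.00879). For MAM1, CYP79F1 and CYP83A1 inflorescence 2 held more than inflorescence 1, yet both stayed far below the shoot apex.

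Genes outside the list extended the pathway. Among the 15 largest increases of models above that mean level, which leaves out genes such as MYB29 that were near 0 in the inflorescences, stood IPMI2 and IMD1, the isomerase and dehydrogenase of chain elongation, with 320 CPM against 1.23 and 2.60 CPM for IPMI2 and 412 CPM against 2.27 and 3.45 CPM for IMD1. SOT17 and SOT18, sulfotransferases of the last step of the core structure, had 119 CPM against 3.93 and 4.01 CPM and 376 CPM against 10.1 and 11.1 CPM. AOP3, which modifies aliphatic side chains, had 2314 CPM, against 32.3 and 42.3 CPM. With MAM1, CYP79F1, CYP83A1, BCAT4 and MYB28, 10 of these 15 models belong to the aliphatic pathway by their known roles. The others were AK3 (aspartate kinase, an enzyme upstream of methionine), SBP2 (selenium-binding protein), AAP2 (amino acid permease), GSTF2 (glutathione S-transferase) and LSH10, with log2 changes of 4.95 to 8.05. AK3 had 969 CPM in the shoot apex, against 1.95 and 5.36 CPM in the inflorescences, beside 1286 and 1096 CPM in the rosettes.

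Genes of the indole branch were called as well. CYP79B2, which makes indole aldoxime, had 18.5 CPM in the shoot apex, against 2.93 and 2.40 CPM (2.79 ± 0.28, adjusted p = 0.0125), and CYP83B1 had 115 CPM, against 35.6 and 35.7 CPM (1.69 ± 0.24, adjusted p = 0.0257). MYB51, an indole regulator, had 8.54 CPM, against 0.189 and 0.132 CPM (5.68 ± 0.98, adjusted p = 0.0373). SUR1, the C-S lyase that both branches share, had 252 CPM, against 26.9 and 27.3 CPM (3.22 ± 0.18, adjusted p = 0.00783). Not called were CYP79B3 (40.4 CPM, against 19.5 and 21.6 CPM), the regulator MYB34 (16.0 CPM, against 3.18 and 3.09 CPM) and TGG1, the myrosinase that cleaves glucosinolates (28.5 CPM, against 49.8 and 55.1 CPM).

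**Figure D3:**
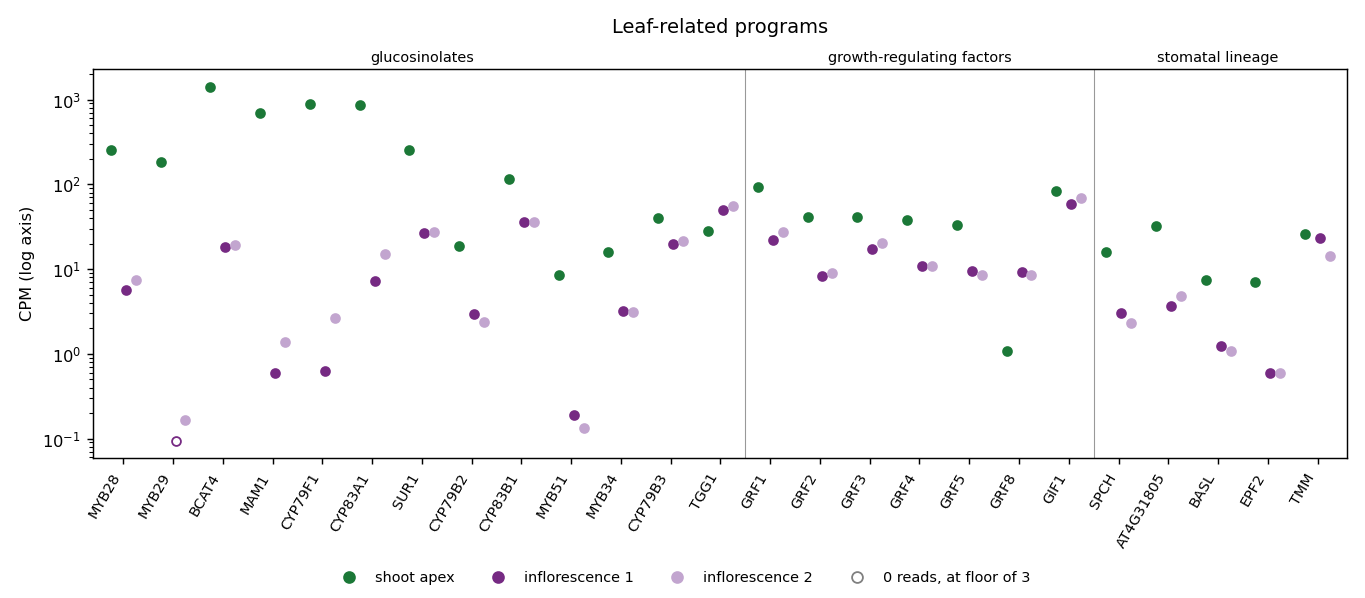
CPM on a log axis of glucosinolate, growth-regulating factor and stomatal genes, chosen as examples, in the shoot apex (green) and in inflorescences 1 and 2 (purple), 1 point per library. The open point is a library without reads, drawn at the floor of 3 reads. For MYB28, MYB29, BCAT4, MAM1, CYP79F1 and CYP83A1 the shoot apex lies between 183 and 1411 CPM and both inflorescences at or below 19.1 CPM.

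The photosynthesis list summed to 13,732 CPM in the shoot apex, against 6600 and 8046 CPM in the inflorescences, while the rosettes held 126,645 and 167,466 CPM. LHCB4.2, a minor light-harvesting protein, was the only call of 21 genes, at 96.4 CPM, against 24.1 and 31.6 CPM (1.79 ± 0.26, adjusted p = 0.0274), and the fit of 3 libraries gave 15 higher and none lower. CAB1 had 1635 CPM, against 301 and 450 CPM (adjusted p = 0.0825). RCA, the activase of Rubisco, had 568 CPM, against 665 and 795 CPM (adjusted p = 0.545). How far green leaf bases left on the dissected apex contributed was not tested.

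Flowering-time genes differed in both directions. Of 14 tested repressors 4 were higher and 1 lower, with 8 positive and 6 negative log2 changes, and the fit of 3 libraries gave 8 and 3. BFT, at or under the floor in both tissues, is among the 14 only through its reads in a rosette. SVP, a MADS-box repressor, had 74.8 CPM in the shoot apex, against 3.40 and 5.42 CPM in the inflorescences (4.08 ± 0.31, adjusted p = 0.00826), and 63.4 and 65.8 CPM in the rosettes. TOE1, an AP2-type repressor targeted by the microRNA miR172, had 94.2 CPM, against 6.86 and 8.15 CPM (3.65 ± 0.22, adjusted p = 0.00783). TFL1, which keeps shoot meristems from becoming flowers, had 9.61 CPM, against 0.126 and 0.164 CPM (5.99 ± 0.85, adjusted p = 0.0259).

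SNZ, a further AP2-type repressor, had 2.73 CPM in the shoot apex, against 0.252 and 0.0986 CPM (3.90 ± 0.46, adjusted p = 0.0175), which was itself far below the 40.5 and 40.0 CPM of the rosettes. TOE3, of the same family, was lower in the shoot apex at 2.73 CPM, against 13.7 and 14.9 CPM (-2.39 ± 0.42, adjusted p = 0.0380). FLC, the central repressor of the vernalization pathway, was not called, with 37.7 CPM in the shoot apex, against 72.9 and 76.8 CPM (-0.99 ± 0.34, adjusted p = 0.13, and 0.00393 with 3 libraries). MAF1, a relative of FLC, had 28.5 CPM, against 61.2 and 63.7 CPM (adjusted p = 0.118). Both FLC-type genes were thus read at a lower level in the shoot apex than in either inflorescence, opposite to SVP.

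Flowering promoters gave 2 genes higher and 2 lower of 12, and 5 and 6 in the fit of 3 libraries. The MADS-box factor AGL24 was higher in the shoot apex at 36.4 CPM, against 2.49 and 4.14 CPM (3.45 ± 0.42, adjusted p = 0.0193), as was SPL15 at 11.3 CPM, against 3.18 and 3.45 CPM (1.76 ± 0.34, adjusted p = 0.0468). FUL, a MADS-box factor of inflorescence and fruit, had no read in the shoot apex, against 23.98 and 28.7 CPM in the inflorescences, and was at least 122-fold lower (adjusted p = 0.01002).

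SPL5 had 1.44 CPM in the shoot apex, against 51.2 and 46.9 CPM (-5.09 ± 0.43, adjusted p = 0.00915). Its relatives SPL3 and SPL4, which like SPL5 are targets of the microRNA miR156, had 1.36 CPM against 56.5 and 68.1 CPM and 1.44 CPM against 27.1 and 25.1 CPM, but missed the threshold with 5 libraries (adjusted p = 0.0847 and 0.052) and passed it with 3 (0.000211 and 0.000236). SOC1, which integrates flowering signals, was not called, at 19.4 CPM, against 14.3 and 12.9 CPM (adjusted p = 0.13). FT, the mobile signal made in leaves, had 3 reads in the shoot apex, against 38 and 46 reads (adjusted p = 0.386).

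Of the floral organ identity genes, AP1, AP3, PI, AG and SEP1 to SEP3, all MADS-box factors, had at most 5 reads each in the shoot apex. The list summed to 45.1 CPM there, against 1610 and 1467 CPM in the inflorescences, and 8 of 16 tested genes were lower and none higher (11 lower and 2 higher in the fit of 3 libraries). The median log2 change was -7.64, or -3.06 with genes without shoot apex reads set at their bound. AP1, of floral meristem, sepal and petal identity, had 1 read in the shoot apex, against 4069 and 3720 reads, a ratio of inflorescence to shoot apex of 1746 (95% counting interval 313 to 68,955, adjusted p = 0.00783). AP3 and PI act together in petals and stamens. AP3 had 0.287 CPM, against 289 and 256 CPM (-9.86 ± 0.39, adjusted p = 0.00783), and PI had no read, against 14,718 and 12,147 reads, at least 2004-fold lower (adjusted p = 0.00834).

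AG, of stamen and carpel identity, had 1 read in the shoot apex, against 2755 and 3410 reads, a ratio of 1382 (248 to 54,580, adjusted p = 0.00783). Of the SEP cofactors needed in all floral whorls, SEP1 had 2 reads, SEP2 had 2 and SEP3 had 5 in the shoot apex. Their inflorescence reads were 3290 and 2747, 6109 and 5313, and 8495 and 7353. SEP4 had 14 reads in the shoot apex, against 224 and 216 reads, and was not called. CAL, a further MADS-box gene of the list, had no read, against 79 and 55 reads, and was not called either. SEP1 to SEP3 passed with adjusted p = 0.00783, 0.00783 and 0.0411. JAG, which promotes growth of leaves and floral organs, was level, with 4.95 CPM against 4.97 and 5.82 CPM (adjusted p = 0.914). AP2, which also acts outside the flower, was lower by a smaller margin, at 24.9 CPM, against 60.2 and 51.2 CPM (-1.16 ± 0.22, adjusted p = 0.0452).

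LFY itself was read little in either tissue, with 5 reads in the shoot apex, against 34 and 22 reads (adjusted p = 0.402). UFO, a cofactor of LFY, had 20 reads in the shoot apex, against 14 and 10 reads, and was not called (adjusted p = 0.201). PTL, a trihelix factor of petal growth, had 9.83 CPM, against 2.93 and 2.66 CPM (adjusted p = 0.114, and 0.00353 with 3 libraries), and NUB, which acts in leaves and floral organs, had 1.51 CPM, against 0.157 and 0.0986 CPM (adjusted p = 0.106, and 0.0208).

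**Figure D4:**
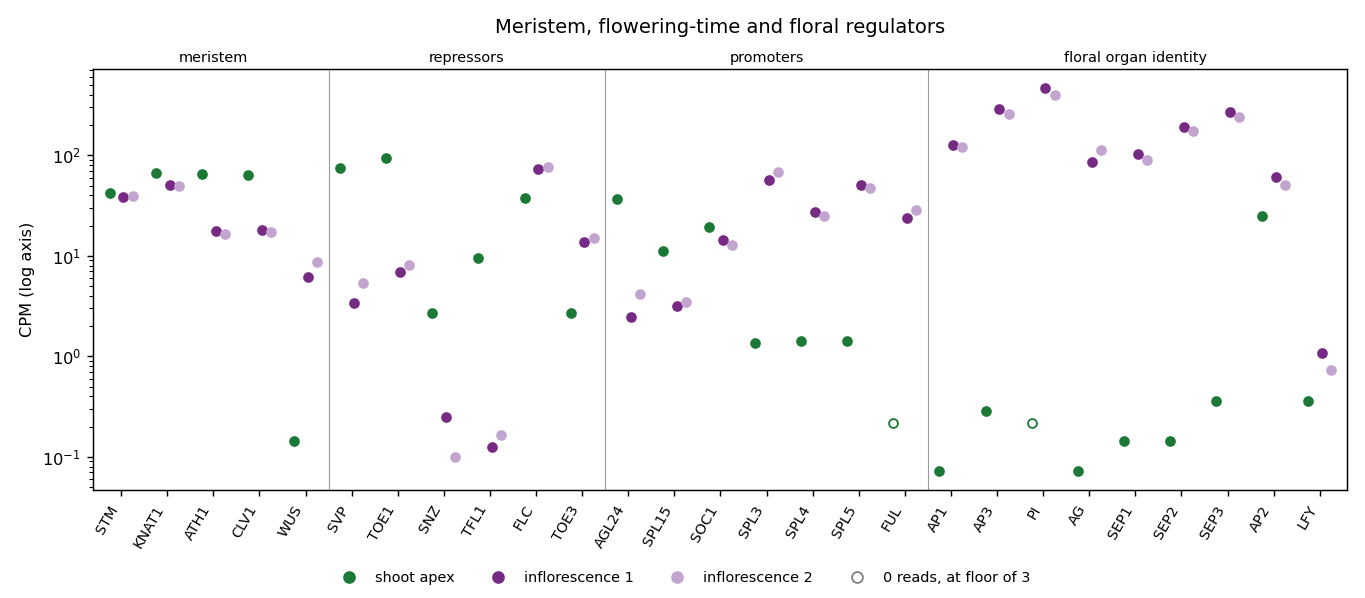
CPM on a log axis of meristem, flowering-time and floral organ identity genes in the shoot apex (green) and in inflorescences 1 and 2 (purple), 1 point per library. Open points are libraries without reads, drawn at the floor of 3 reads. STM and KNAT1 are at like levels in both tissues, SVP and TOE1 are at 74.8 and 94.2 CPM in the shoot apex and at or below 8.15 CPM in the inflorescences, and AP1, AP3, PI, AG and SEP1 to SEP3 lie at or below 0.359 CPM in the shoot apex.

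Genes of carpels and ovules followed the floral regulators in part. Of 15 tested, 7 were lower and none higher, and 10 were lower and 2 higher with 3 libraries. SHP1 and SHP2, MADS-box factors of the fruit valve margin and ovule, had 0 reads against 546 and 637 reads (at least 88.6-fold lower, adjusted p = 0.0128) and 0.574 CPM against 24.4 and 25.4 CPM (-5.42 ± 0.39, adjusted p = 0.00784). STK, of ovule identity, had 1 read, against 451 and 463 reads, a ratio of 205 (36.7 to 8099, adjusted p = 0.0145). CRC, a YABBY factor of carpels and nectaries, had 2.22 CPM, against 90.2 and 102 CPM (-5.43 ± 0.67, adjusted p = 0.0201).

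SPL (also NZZ), which starts sporogenesis in anthers and ovules, had no read in the shoot apex, against 404 and 306 reads, at least 52.9-fold lower (adjusted p = 0.0185). BEL1, of the ovule integument, was lower at 3.30 CPM, against 35.3 and 29.2 CPM (-3.29 ± 0.55, adjusted p = 0.0353), but it was highest in the rosettes, with 62.3 and 121 CPM, so in these libraries its transcript was not restricted to flowers. The basic helix-loop-helix factor SPT had 4.31 CPM, against 16.1 and 20.05 CPM (-2.07 ± 0.40, adjusted p = 0.0471). ANT and AIL6, which promote growth of all lateral organs, stood on the other side without a call, with 116 CPM against 37.0 and 33.9 CPM (adjusted p = 0.15) and 19.7 CPM against 9.79 and 9.60 CPM (adjusted p = 0.105).

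Genes known for meiosis were read in both tissues. Of 20 tested, 2 were lower and none higher, 4 higher and 3 lower with 3 libraries, and the median log2 change was 0.27. DMC1, the meiotic recombinase, had 34.2 CPM in the shoot apex, against 31.9 and 20.12 CPM in the inflorescences (adjusted p = 0.501), and 15.1 and 10.7 CPM in the rosettes. ASY1, of the chromosome axis, had 15.9 CPM, against 17.5 and 11.4 CPM (adjusted p = 0.866), and 1.47 and 0.623 CPM in the rosettes. The genes called were SYN1, the meiotic cohesin, with 3 reads against 190 and 251 reads, a ratio of 32.9 (11.2 to 160, adjusted p = 0.0366), and ZYP1a, of the synaptonemal complex, with 1.15 CPM against 7.30 and 5.33 CPM (-2.45 ± 0.48, adjusted p = 0.0483). The neighbouring copy ZYP1b, with 4.74 CPM against 10.8 and 8.09 CPM, was not called (adjusted p = 0.194, and 0.0355 with 3 libraries), and reads shared by such copies make both values uncertain.

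The anther programs after meiosis accounted for the steepest decreases. Among 20 tested genes of the tapetum and pollen wall, 17 were lower and none higher, with a median log2 change of -8.98, or -7.84 with genes at their bound. AMS, a basic helix-loop-helix regulator of the tapetum, had 1 read in the shoot apex, against 11,151 and 9072 reads, a ratio of 4532 (813 to 179,019, adjusted p = 0.00783). The enzymes of sporopollenin, the polymer of the outer pollen wall, followed. CYP703A2, CYP704B1 and ACOS5, which hydroxylate and activate its fatty acids, had no read in the shoot apex, against 2084 and 2016, 7067 and 4603, and 3459 and 3341 reads, and were at least 306-fold, 868-fold and 508-fold lower, each at adjusted p = 0.00783. The polyketide synthase LAP5 had 0.718 CPM, against 122 and 157 CPM (-7.59 ± 0.39, adjusted p = 0.00783), and the reductase MS2 had 0.287 CPM, against 222 and 142 CPM (-9.28 ± 1.68, adjusted p = 0.0413).

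ATA7 and ATA20, known from the tapetum, had 0 reads against 9262 and 11,674 reads (at least 1569-fold lower, adjusted p = 0.00816) and 3.80 CPM against 1651 and 1952 CPM (-8.89 ± 0.41, adjusted p = 0.00783). The transporter ABCG26 had no read, against 2177 and 1490 reads, at least 273-fold lower (adjusted p = 0.0110). DRL1 and TKPR2, reductases of the same wall pathway, kept a sizeable level in the shoot apex, with 43.1 CPM against 221 and 191 CPM and 16.2 CPM against 81.1 and 82.5 CPM (-2.26 ± 0.22 and -2.33 ± 0.20, adjusted p = 0.0122 and 0.00908). MS1, a PHD-finger regulator, was level, with 16.3 CPM against 16.9 and 15.8 CPM (adjusted p = 0.99), and it was also read in the rosettes, with 20.4 and 30.2 CPM. DYT1, at the head of the tapetal cascade, had no read against 142 and 73 reads and missed the threshold (adjusted p = 0.0561). LAP6, the partner of LAP5, differed between the inflorescences, with 35.8 and 93.6 CPM, against 9.26 CPM in the shoot apex, and missed it too (adjusted p = 0.0742).

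Pollen coat genes were the extreme of all lists. All 8 tested models were lower, and together they reached 0.431 CPM in the shoot apex, against 10,488 and 11,663 CPM in the inflorescences. GRP17, an oleosin-like protein of the pollen coat that is needed for rapid hydration on the stigma, had 1 read in the shoot apex, against 110,948 and 108,667 reads, a ratio of 49,218 (8833 to 1,943,996, adjusted p = 0.00783). GRP19 had 3 reads, against 86,854 and 98,940 reads, a ratio of 13,879 (4749 to 67,303, adjusted p = 0.00795), and GRP20 had none, against 29,555 and 35,231 reads, at least 4851-fold lower (adjusted p = 0.00783). The extracellular lipases EXL4 and EXL6 had no read either, against 71,971 and 74,984 and against 21,619 and 23,098 reads, at least 10,988-fold and 3344-fold lower. These genes stand next to each other in the genome and are similar in sequence within each family, so reads shared by copies make the single values, and possibly the family total, uncertain. The 5 GRP genes and the neighbouring ortholog of AT5G07570 form a run of 6 lower models in the *A. lyrata* assembly used by the annotation, on scaffold 6 from 2,931,874 to 2,949,037, with 6 reads in the shoot apex, against 239,179 and 256,305 reads. The EXL genes, the ortholog of AT1G75900 and the glycosyl hydrolase ATA27 form a run of 5 on scaffold 2 from 16,935,173 to 16,951,342, with 69 reads, against 157,644 and 173,410 reads.

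Genes of mature pollen and the pollen tube gave 16 of 20 lower and none higher, and all 20 lower with 3 libraries. The list summed to 36.4 CPM in the shoot apex, against 3993 and 3683 CPM. PPME1, a pectin methylesterase of the growing tube, had no read, against 30,828 and 28,650 reads, at least 4442-fold lower (adjusted p = 0.00783). The receptor kinase ANX2 and the peptides RALF4 and RALF19, which guard the integrity of the tube wall, had no read either. Their inflorescence reads were 3425 and 2416 for ANX2, 6517 and 5233 for RALF4, and 3988 and 3336 for RALF19, which put them at least 435-fold, 876-fold and 546-fold lower (adjusted p = 0.00915, 0.00783 and 0.00783). The arabinogalactan proteins AGP6 and AGP11 had 2.01 CPM against 648 and 664 CPM and 0.502 CPM against 423 and 477 CPM (-8.35 ± 0.42 and -9.79 ± 0.37, adjusted p = 0.00783 each).

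VEX1, of the vegetative pollen cell, had no read against 336 and 725 reads and was at least 79.9-fold lower (adjusted p = 0.0278). DUO1, the MYB factor of the male germline, had no read against 44 and 96 reads and was not called (adjusted p = 0.0826). ANX1 was read in the shoot apex, at 10.98 CPM against 26.4 and 23.7 CPM (adjusted p = 0.0667), as was the actin ACT11, at 11.98 CPM against 89.4 and 72.4 CPM (adjusted p = 0.0729), and both passed in the fit of 3 libraries (0.0038 and 0.000776). The 15 largest decreases of models with a mean log2 CPM above 3 were of the same kind, with no read in the shoot apex and 28,633 to 85,530 reads in each inflorescence. Among them were PGA4 (polygalacturonase, at least 11,375-fold lower), VGDH2 (a pectin methylesterase-like protein, at least 5615-fold), BGAL11 (beta-galactosidase, at least 4912-fold), ATA27 (at least 10,184-fold), EXL4, GRP20 and PPME1, together with orthologs of pectate lyase, pectin lyase-like and GDSL lipase genes without a symbol and AL4G44700, a model without a listed ortholog.

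**Figure D5:**
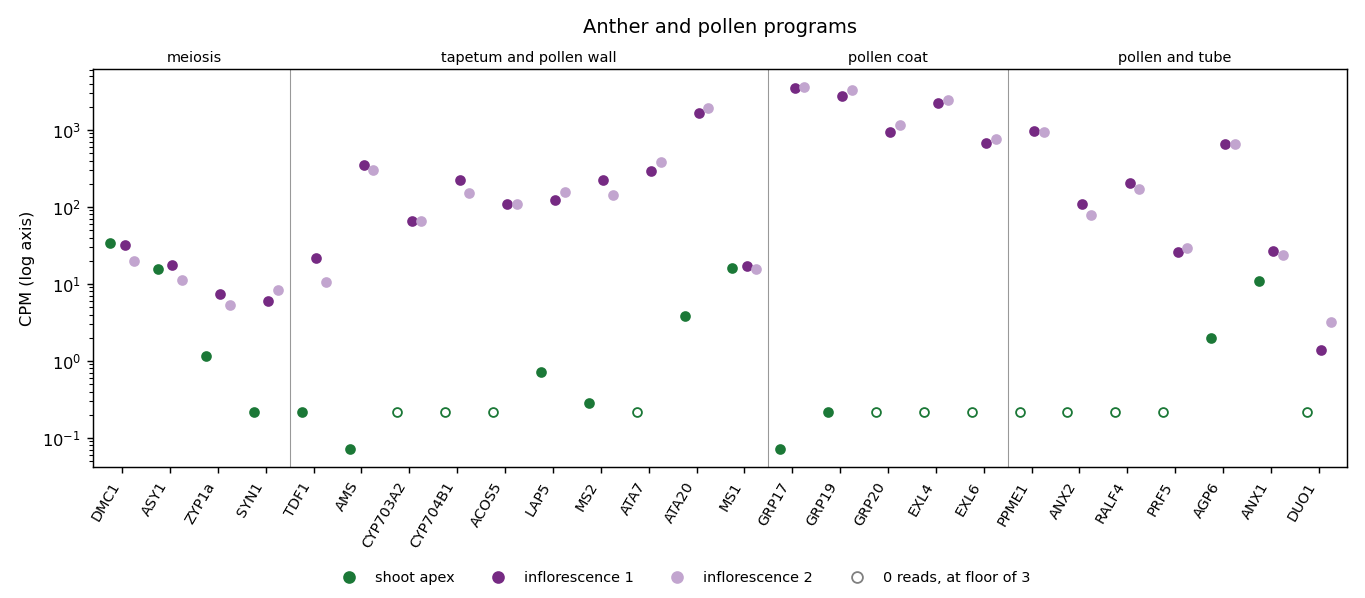
CPM on a log axis of meiosis, tapetum, pollen coat and pollen genes in the shoot apex (green) and in inflorescences 1 and 2 (purple), 1 point per library. Open points are libraries without reads, drawn at the floor of 3 reads. DMC1, ASY1 and MS1 are at like levels in both tissues, and the 5 pollen coat genes lie at or below 0.215 CPM in the shoot apex and at or above 680 CPM in the inflorescences.

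Late stamen regulators and nectary genes were also lower. Of 10 genes of stamen maturation and jasmonate 3 were lower and none higher, with 5 and 4 in the fit of 3 libraries. MYB21, MYB24 and MYB57, jasmonate-dependent regulators of stamen maturation, had 0, 0 and 1 reads in the shoot apex, against 6206 and 4675, 633 and 574, and 5250 and 3199 reads (adjusted p = 0.00795, 0.00909 and 0.00783). The MYB24 model overlaps another model, AL7G48280, and reads of both cannot be told apart without strand. MYB21 was at least 811-fold lower. The jasmonate biosynthesis genes gave no call. OPR3 had 165 CPM in the shoot apex, against 56.0 and 71.6 CPM (adjusted p = 0.0575), and LOX2 had 87.5 CPM, against 779 and 628 CPM (adjusted p = 0.219), beside 2459 and 281 CPM in the rosettes. Of 4 genes of flower volatiles and nectaries 3 were lower, and 3 lower and 1 higher in the fit of 3 libraries. The fourth, the ortholog of the terpene synthase gene AT5G44630, had 12.99 CPM in the shoot apex, against 3.24 and 3.16 CPM (adjusted p = 0.214, and 0.00163 with 3 libraries). TPS14, the linalool synthase of flowers, had no read in the shoot apex, against 2571 and 1374 reads, at least 293-fold lower (adjusted p = 0.0205). SWEET9, the sucrose transporter of nectaries, had no read, against 4886 and 4904 reads, at least 732-fold lower (adjusted p = 0.00783), and CWINV4, the nectary invertase, had 0.359 CPM, against 338 and 320 CPM (-9.82 ± 0.52, adjusted p = 0.00783).

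Of 12 flavonoid genes 1 was higher and 3 were lower, against 3 and 6 in the fit of 3 libraries. FLS1, which makes flavonols, had 37.2 CPM in the shoot apex, against 283 and 261 CPM in the inflorescences (-2.87 ± 0.29, adjusted p = 0.0134), CHI had 39.8 CPM, against 122 and 119 CPM (-1.59 ± 0.20, adjusted p = 0.0199), and their regulator MYB12 had 0.861 CPM, against 11.5 and 11.2 CPM (-3.71 ± 0.35, adjusted p = 0.0113). PAP1, a MYB activator of anthocyanins, was higher at 10.98 CPM, against 2.77 and 3.29 CPM (1.86 ± 0.27, adjusted p = 0.0271). The late anthocyanin enzymes DFR and LDOX had 20.8 CPM against 12.5 and 9.501 CPM and 42.3 CPM against 22.2 and 15.1 CPM, and were not called (adjusted p = 0.764 and 0.689).

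Cell division genes were read in both tissues, and the list summed to 599 and 338 CPM in the rosettes. None of 28 cell cycle and replication genes was called, 8 were higher and 2 lower with 3 libraries, and the median log2 change was 0.29, with a summed level of 1201 CPM in the shoot apex, against 1004 and 863 CPM. CDC20.1, an activator of the anaphase-promoting complex, had 92.6 CPM, against 65.7 and 60.6 CPM (adjusted p = 0.501), and the catalytic DNA polymerase alpha subunit ICU2 had 85.0 CPM, against 56.2 and 54.2 CPM (adjusted p = 0.201). The D-type cyclin CYCD3;1 had 56.5 CPM, against 20.11 and 22.5 CPM (adjusted p = 0.322, and 0.00122 with 3 libraries).

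Silencing genes were called at about the share of all models with 5 libraries. AGO9, an Argonaute that acts in the ovule, was lower at 8.47 CPM in the shoot apex, against 110 and 98.0 CPM (-3.62 ± 0.66, adjusted p = 0.0417). AGO5, known from reproductive cells, was lower at 18.15 CPM, against 69.5 and 72.3 CPM (-1.97 ± 0.20, adjusted p = 0.0140). RDR6, the RNA polymerase of trans-acting siRNA, was higher at 59.6 CPM, against 32.9 and 31.8 CPM (0.88 ± 0.17, adjusted p = 0.0446). AGO1, with 269 CPM against 321 and 278 CPM, and AGO4, with 240 CPM against 208 and 210 CPM, were not called (adjusted p = 0.779 and 0.724). Of 20 genes, 1 was higher and 2 lower, and 9 and 3 with 3 libraries.

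Secondary wall genes gave no call among 11, with 1 higher and 4 lower in the fit of 3 libraries. The laccases LAC4 and LAC17, the most abundantly read members, had 30.6 CPM against 57.0 and 58.5 CPM and 25.4 CPM against 35.1 and 31.7 CPM (adjusted p = 0.351 and 0.823). LAC4 passed in the fit of 3 libraries (0.00433). The cellulose synthase CESA4 had 19.9 CPM in the shoot apex, against 25.2 and 11.4 CPM (adjusted p = 0.932), so the shoot apex lay between both inflorescences.

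Hormone genes gave 1 call in each direction among 17, and 5 higher and 4 lower with 3 libraries. With 5 libraries this is 5.9% in each direction, near the 3.99% higher and 8.74% lower of all models tested. GA3OX1, which makes bioactive gibberellin, had 6.31 CPM in the shoot apex, against 0.661 and 1.18 CPM (2.77 ± 0.46, adjusted p = 0.0347). YUC6, of auxin synthesis, had 2.08 CPM, against 12.6 and 12.7 CPM (-2.60 ± 0.31, adjusted p = 0.0183).

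By the limits used here, models read in a single tissue were more frequent on the side of the inflorescence. There were 361 protein coding models without a read in the shoot apex and with at least 10 CPM in both inflorescences, and 8 of the reverse kind. The 361 models took 7.90% (exact 95% interval 7.89% to 7.91%) and 7.47% (7.46% to 7.48%) of the inflorescence reads. Of them, 286 had no read in the rosettes either, 308 had a listed ortholog, and 27 were members of the lists. Relaxing the limit to 3 reads in the shoot apex gave 548 models. Each inflorescence alone gave 383 (replicate 1) and 416 (replicate 2). The inflorescence libraries were the deeper ones, so the counts in both directions are not read at equal depth. The reverse kind also had to lack reads in both inflorescence libraries, not in a single library, and its limit was not relaxed. Without the limit of 10 CPM, 302 models had at least 1 read in the shoot apex and none in either inflorescence.

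Of the 8 models of the reverse kind, AL7G30440, without a listed ortholog, had 5631 reads in the shoot apex, beside 451 and 1 in the rosettes, and was at least 4188-fold higher than in the inflorescences, but missed the threshold (adjusted p = 0.0988). The ortholog of AT1G68238, an uncharacterized protein, had 417 reads, beside 319 and 382 in the rosettes, and was at least 310-fold higher (adjusted p = 0.00822). ATCSLB05, a cellulose synthase-like protein, had 721 reads, beside 49 and 0 in the rosettes (adjusted p = 0.0739).

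Of the 5 models with most reads in each tissue, 3 passed the test in either list. In the shoot apex these models were TUA2 (alpha-tubulin), PRXR1 (a peroxidase), the ortholog of AT5G05020, GSTU20 (a glutathione S-transferase) and VSP1 (vegetative storage protein), of which TUA2 and VSP1 were not called (adjusted p = 0.165 and 0.600). PRXR1 had 3254 CPM there, against 358 and 450 CPM in the inflorescences (3.01 ± 0.38, adjusted p = 0.0210), and GSTU20 had 2613 CPM, against 359 and 348 CPM (2.89 ± 0.33, adjusted p = 0.0164). The ortholog of AT5G05020 is annotated as a member of the Ole e 1 pollen allergen and extensin family, and despite that name it had 43,850 reads in the shoot apex, against 4 and 7 reads in the inflorescences (14.06 ± 1.09, adjusted p = 0.00832), beside 31,071 and 8199 reads in the rosettes. In the inflorescences the leading models were AAS (a pyridoxal phosphate-dependent enzyme), BGLU18, GRP17, sks13 and LP1, of which BGLU18 and LP1 were not called (adjusted p = 0.76 and 0.0807). AAS had 2.65 CPM in the shoot apex, against 7561 and 3741 CPM (-11.05 ± 0.90, adjusted p = 0.00863), and sks13 had 3.44 CPM, against 3339 and 2880 CPM (-9.82 ± 0.60, adjusted p = 0.00783).

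Genes that follow the hour or the growth conditions gave 1 call, and their part in the results above was not tested. LHY, a morning gene of the circadian clock, had 13.4 CPM in the shoot apex, against 658 and 652 CPM in the inflorescences, with 38.6 and 1.66 CPM in the rosettes. The evening gene TOC1 had 48.3 CPM, against 14.3 and 14.1 CPM, with 9.85 and 471 CPM in the rosettes. No clock gene of 11 was called (LHY adjusted p = 0.146), while the fit of 3 libraries called 4 higher and 5 lower. COR15A, a cold-responsive protein of the chloroplast, was lower at 0.502 CPM, against 130 and 144 CPM (-8.07 ± 1.00, adjusted p = 0.0201), and was the only call of 7 cold genes (1 higher and 5 lower with 3 libraries). None of 9 heat genes was called, and 5 were higher with 3 libraries, among them HSP70 with 236 CPM, against 61.3 and 53.7 CPM (adjusted p = 0.295, and 0.00068).

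Genes often used as references gave few calls. Of 8 genes 1 was lower, and 1 was higher and 2 lower in the fit of 3 libraries. UBC9 had 47.2 CPM, against 131 and 130 CPM (-1.46 ± 0.19, adjusted p = 0.0220). The median log2 change was -0.20 with TMM and 0.01 with library totals, so no direction is given for the list. Markers of other organs were scarce. The 11 root markers summed to 2.15 CPM in the shoot apex, against 14.2 and 29.0 CPM, with 6 of them at 0 in the shoot apex. Of 3 tested, 1 was lower, and 2 were lower in the fit of 3 libraries. COBL9, of root hairs, was called lower with no read against 285 and 264 reads (at least 41.0-fold, adjusted p = 0.0156), and IRT1, the iron transporter, had no read against 146 and 585 reads (adjusted p = 0.0852). No marker of embryo and seed was called among 2 tested, and 1 was lower with 3 libraries. The 10 markers summed to 1.65 CPM, against 1.57 and 2.27 CPM.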

How the data were processed

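Libraries of *A. lyrata* RNA, made with a kit that does not mark strand, were sequenced by the authors, aligned and counted per gene model. The submitters' notes name FastQC and TopHat, both without a version. The deposited count columns hold whole reads per model. The study kept uniquely aligned reads for analysis, without saying whether this holds for the deposited table. The counted reads of both inflorescences exceed the uniquely aligned reads that the study lists for them. These columns can therefore not hold those reads alone. The counted reads of the shoot apex stay below its listed number. The counting tool and the rule for overlapping models are not given in the sources used here. The deposited RPM columns hold the same reads relative to a larger library total, of which the counted reads made up 80.1% (shoot apex), 81.5% and 81.0% (inflorescences 1 and 2), and were used only for that check. The RPM header calls them RPKM. Another 2 columns belong to other samples and were not used. The study's own differential test was made for another comparison and is not given here.

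Counts were fitted with edgeR 4.0.16 (glmQLFit and glmQLFTest, filterByExpr, TMM, 1 mean per tissue) in R 4.3.3 with limma 3.58.1 over 5 libraries, where the rosettes enter the spread, the TMM factors and the filter on low counts but not the contrast. With a single shoot apex library, its spread is assumed to equal that of the other tissues. Changes are log2 shoot apex over inflorescence, with SE, and p-values were adjusted by Benjamini-Hochberg over all models tested. The SE was worked back from the test's F statistic and was not estimated on its own. With few shoot apex reads it can be smaller than counting error alone. It is then no measure of precision, as for AP3 (4 reads, SE 0.39), CWINV4 (5 reads, SE 0.52) and AGP11 (7 reads, SE 0.37). Where the shoot apex had no read, the fold change is a bound from 3 reads in that library, and with 1 to 3 reads a ratio is given with its exact 95% counting interval. Alternatives were other scalings and filters, 3 libraries only, each replicate left out, DESeq2 1.42.0 and the thresholds the study used elsewhere. The fit was tested on simulated data for this comparison with 24,770 genes. It called 2 of 67 genes changed by 1 on the log2 scale, 34 of 67 changed by 2, 65 of 66 changed by 3, and 6 of 24,570 unchanged genes. All simulated libraries shared a single pooled profile and the same spread for every gene, and only genes with many reads were changed, in the shoot apex. The real tissues differ in many more genes and in spread between genes, so these rates cannot be carried over to the real calls.

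Members, lists and tests were chosen with earlier results of these data known. The rule for named genes took up to 6 called members per list by size of change, those going against their list, up to 2 uncalled members with the highest CPM, the 15 largest changes in each direction with mean log2 CPM above 3 and no overlap, the 5 models with most reads per tissue, and up to 10 models silent in 1 tissue. Other genes named were chosen after their values were seen. Symbols came from the TAIR10.1 reference annotation by locus tag. Summaries used Python 3.11.15, pandas 2.3.3, numpy 2.4.6 and scipy 1.17.1, and plots matplotlib 3.10.9. A withheld gene is not reported here.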

Additional observations from a re-analysis of the deposited data

How the results depend on the processing

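Against 1016 models higher and 2226 lower in the shoot apex, 3 settings changed the number called higher by more than 1.5 times without leaving out a single library. The fit of 3 libraries gave 5259 higher and 7130 lower, DESeq2 gave 1816 higher, and the study's thresholds gave 658 higher. With 1 library left out at a time, the counts ran from 0 to 5326 higher and from 0 to 7107 lower. Both counts of 0 came without an inflorescence library (edgeR, 3768 and 3879 models at unadjusted p under 0.05), and 5306 to 5326 higher and 7068 to 7107 lower came without a rosette. The biological coefficient of variation was 0.303 with all 5 libraries, 0.160 with 3 and 0.408 without an inflorescence, so the calls depend on which libraries set the spread. The higher share of calls was 31.3% with TMM, 43.0% with library totals and 42.4% with 3 libraries. Every call shared with an alternative kept its sign. Of 103 named genes called, all lost the call without either inflorescence, 6 without a filter on low counts, 3 with library totals and 1 with median-of-ratios factors. No paired analysis was possible because the shoot apex and the inflorescence share only replicate number 1. The single shoot apex library, with the fewest reads of the 3, limits the detection of weakly expressed genes, and a change present in that library alone cannot be told from its tissue.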

Other observations

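Several neighbouring models changed in the same direction. Of the runs of at least 4 adjacent models called the same way, 11 were found, and 10 of them were lower in the shoot apex. The single run that was higher held 5 models on scaffold 2 from 12,776,687 to 12,793,701, among them the orthologs of AT1G67860, AT1G67865 and AT1G67870, with 5996 reads in the shoot apex, against 387 and 626 reads in the inflorescences. A run of 4 models with RALFL8 and RALFL9, members of the RALF peptide family, on scaffold 2 from 2,412,571 to 2,416,495, had 0 reads in the shoot apex, against 30,688 and 25,269 reads. The longest run, 7 models on scaffold 1 from 10,446,114 to 10,470,140, had 2 reads, against 11,160 and 12,396 reads. Neighbouring copies of 1 family can share reads, and the part of this in the runs was not tested.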
